A study of Bos taurus with 12 samples.

Results

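The PAX transcription factors PAX2, PAX3, PAX5, PAX6, PAX8 and PAX9 were followed in messenger RNA of bovine embryonic stem cells. They were taken from a deposited table of read counts by their Entrez gene identifiers, and are 6 of the 19285 entries in that table. The members were chosen by their measured counts in these libraries, so their levels and differences are given as descriptions and no p-value of theirs is read. Of the other family members, PAX1 and PAX4 had an entry as well, and PAX7 was not analysed here.

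RNA with poly-A tails was sequenced from the cell line F7, labelled wild type, in 12 libraries that fall into 4 groups of 3. The groups are 1/7MC+Pyr+FGF, 1/7MC+Pyr, 1/7MC and MC, and the last is labelled NC under treatment. From the series title, Pyr is pyruvate, FGF is a recombinant human basic fibroblast growth factor, and the question is how low-density feeder layers with these additions affect the cells. What MC stands for is not stated in the labels, and neither are doses, durations or the feeder cells. All libraries come from 1 line, and nothing states that the replicates were separate cultures, so errors and p-values cover the spread of these samples alone, which may be technical.

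PAX proteins bind DNA through a conserved paired domain and direct the formation of organs in the embryo. PAX6 acts in the eye, forebrain and pancreas, and is the relative of PAX4, which acts in insulin-producing cells. PAX2, PAX5 and PAX8 form a subfamily that shares a role at the border of midbrain and hindbrain. Beyond that border PAX2 serves the kidney, optic stalk and inner ear, PAX8 the thyroid and kidney, and PAX5 the commitment of B cells. PAX3, with PAX7, marks the dorsal neural tube, neural crest and muscle precursors. PAX9, with PAX1, serves the pharyngeal pouches, teeth and the sclerotome that forms vertebrae. These roles are known from mouse and human. PAX6 is also widely used as an early marker of neural differentiation in culture.

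Libraries held 27373759 to 44440972 counts. Levels are given in CPM, counts scaled to a common library size, where 3 counts equal 0.0703 to 0.111 CPM depending on the library. A count of 0 leaves room for a level up to that of 3 counts, which covers counting error only. The reads of MC replicates 2 and 3 had been assigned to a second set of gene models. Differences of the members from MC are therefore given both with all MC libraries and with MC replicate 1 standing for MC by itself, without a replicate. For other genes and for gene lists they are against all MC libraries unless MC replicate 1 is named, so the second set of gene models enters them. As a check of the labelled cell type, POU5F1, the core transcription factor of pluripotency, averaged 1150 ± 208 CPM in 1/7MC+Pyr+FGF, 1165 ± 33.9 in 1/7MC+Pyr, 781 ± 96.5 in 1/7MC and 1093 ± 24.4 in MC (SD, n = 3 each). Markers of fibroblasts and feeder cells summed to 7990 to 12280 CPM in 1/7MC+Pyr+FGF, 12240 to 21740 in 1/7MC+Pyr, 9672 to 15610 in 1/7MC and 1966 to 2010 in MC. Markers of pluripotency and of fibroblasts were both present in all groups. In bulk RNA, fewer cells of a type and less RNA per cell cannot be told apart.

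PAX6 was far higher in 1/7MC than in the other groups. It stood at 7.28, 4.75 and 9.38 CPM in 1/7MC+Pyr+FGF, at 10.01, 10.8 and 7.21 CPM in 1/7MC+Pyr, at 65.6, 70.5 and 70.1 CPM in 1/7MC, and at 24.3, 19.1 and 19.9 CPM in MC. The 3 libraries of 1/7MC were above all others, the MC libraries came next, and the groups with pyruvate overlapped at the bottom. Between 1/7MC+Pyr and 1/7MC the log2 fold change was -2.88 ± 0.22 (SE), a level 7.34-fold lower with pyruvate. Between 1/7MC and MC it was 1.70 ± 0.21, and 1.51 ± 0.29 against MC replicate 1 alone. With pyruvate the level lay below that of MC as well, at -1.17 ± 0.21 for 1/7MC+Pyr against MC (-1.36 ± 0.26 against MC replicate 1). Adding FGF to pyruvate gave a difference of -0.39 ± 0.21 from 1/7MC+Pyr, with overlapping libraries.

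PAX2 had the opposite order at its upper end. It read 2.90, 3.27 and 3.63 CPM in 1/7MC+Pyr+FGF, 3.63, 3.22 and 3.48 CPM in 1/7MC+Pyr, 7.69, 6.15 and 7.77 CPM in 1/7MC, and 21.6, 20.4 and 19.8 CPM in MC. The MC libraries were highest, those of 1/7MC lay between, and the groups with pyruvate overlapped at the lowest levels. PAX2 was thus the only member of the 6 whose MC libraries lay above its 1/7MC libraries. The log2 fold change was -1.51 ± 0.13 for 1/7MC against MC (-1.57 ± 0.19 against MC replicate 1), and -1.06 ± 0.14 for 1/7MC+Pyr against 1/7MC. Adding FGF gave -0.08 ± 0.14 relative to 1/7MC+Pyr.

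PAX5 was high in 1/7MC and near or below the limit of measurement in MC. Its levels were 2.16, 2.78 and 2.86 CPM in 1/7MC+Pyr+FGF, 2.84, 2.73 and 3.09 CPM in 1/7MC+Pyr, and 29.0, 37.0 and 27.4 CPM in 1/7MC. In MC it had 22, 3 and 0 counts in replicates 1, 2 and 3, or 0.616, 0.0958 and 0 CPM. All 1/7MC libraries were high, both groups with pyruvate sat together near 3 CPM, and the MC libraries were lowest, with replicates 2 and 3 at or below the level of 3 counts. The log2 fold change of 1/7MC against MC was 6.88 ± 0.49 over all libraries, 5.66 ± 0.33 against MC replicate 1 alone, and 9.14 without that library. With 3 and 0 counts left in MC, that last value is no bound, and the size of the difference depended on which MC libraries were used. The log2 fold change for 1/7MC+Pyr against 1/7MC was -3.43 ± 0.38, a level 10.8-fold lower. For 1/7MC+Pyr against MC it was 3.45 ± 0.51 (2.23 ± 0.33 against MC replicate 1, and 5.71 without it), so PAX5 with pyruvate stayed above MC. FGF on top of pyruvate gave -0.15 ± 0.38.

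PAX8 averaged 15.6 ± 0.728 CPM in 1/7MC+Pyr+FGF, 18.6 ± 1.33 in 1/7MC+Pyr, 22.7 ± 0.355 in 1/7MC and 10.5 ± 5.64 in MC. It measured 15.1, 15.3 and 16.5 CPM in 1/7MC+Pyr+FGF, 20.1, 17.5 and 18.1 CPM in 1/7MC+Pyr, 22.7, 22.3 and 23.0 CPM in 1/7MC, and 16.9, 8.43 and 6.16 CPM in MC. The first 3 groups did not overlap and stepped up in that order, while MC replicates 2 and 3, the libraries assigned to the second set of gene models, lay below all the rest. MC replicate 1, which shares its gene models with the other groups, lay between 1/7MC+Pyr+FGF and 1/7MC+Pyr. The log2 fold change of 1/7MC against MC was 1.11 ± 0.26 over all libraries, 0.44 ± 0.15 against MC replicate 1 alone and 1.63 without that library. The part of the gene models in the lower PAX8 of MC replicates 2 and 3 was not tested. The differences were -0.29 ± 0.26 for 1/7MC+Pyr against 1/7MC and -0.25 ± 0.26 for 1/7MC+Pyr+FGF against 1/7MC+Pyr. In this fit each gene has 1 estimate of spread over all 12 libraries. These SE therefore include the spread of MC, with its SD of 5.64 CPM, though MC is in neither comparison.

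PAX3 was close to the limit of measurement outside 1/7MC. It had 11, 11 and 15 counts in 1/7MC+Pyr+FGF, 13, 2 and 2 in 1/7MC+Pyr, 139, 152 and 168 in 1/7MC, and 9, 7 and 3 in MC. As levels, these are 0.258, 0.333 and 0.425 CPM in 1/7MC+Pyr+FGF, 0.446, 0.0575 and 0.0710 in 1/7MC+Pyr, 4.69, 4.03 and 4.85 in 1/7MC, and 0.252, 0.224 and 0.111 in MC. All 1/7MC libraries stood far above the other 9, among which 1/7MC+Pyr overlapped both 1/7MC+Pyr+FGF and MC. The log2 fold change was 4.47 ± 0.48 for 1/7MC against MC (4.15 ± 0.68 against MC replicate 1) and -4.57 ± 0.48 for 1/7MC+Pyr against 1/7MC. The difference between 1/7MC+Pyr and 1/7MC read -6.07 without 1/7MC+Pyr replicate 1, the library with 13 of that group's counts, against 2 in each of the others. For 1/7MC+Pyr+FGF against 1/7MC+Pyr the value was 0.84 ± 0.58, and 2.33 without the same library.

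PAX9 was low in every group but ordered. It read 0.539, 0.424 and 0.765 CPM in 1/7MC+Pyr+FGF, 1.41, 1.38 and 0.888 CPM in 1/7MC+Pyr, 3.00, 4.01 and 3.52 CPM in 1/7MC, and 0.308, 0.255 and 0.297 CPM in MC, where it had 11, 8 and 8 counts. No pair of groups overlapped, with 1/7MC highest, then 1/7MC+Pyr, 1/7MC+Pyr+FGF and MC. The log2 fold change was 3.60 ± 0.30 for 1/7MC against MC (3.51 ± 0.50 against MC replicate 1), -1.51 ± 0.25 for 1/7MC+Pyr against 1/7MC, and -1.09 ± 0.28 for 1/7MC+Pyr+FGF against 1/7MC+Pyr. That last value was the largest below 0 among the 6 when FGF was added.

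**Figure D1:**
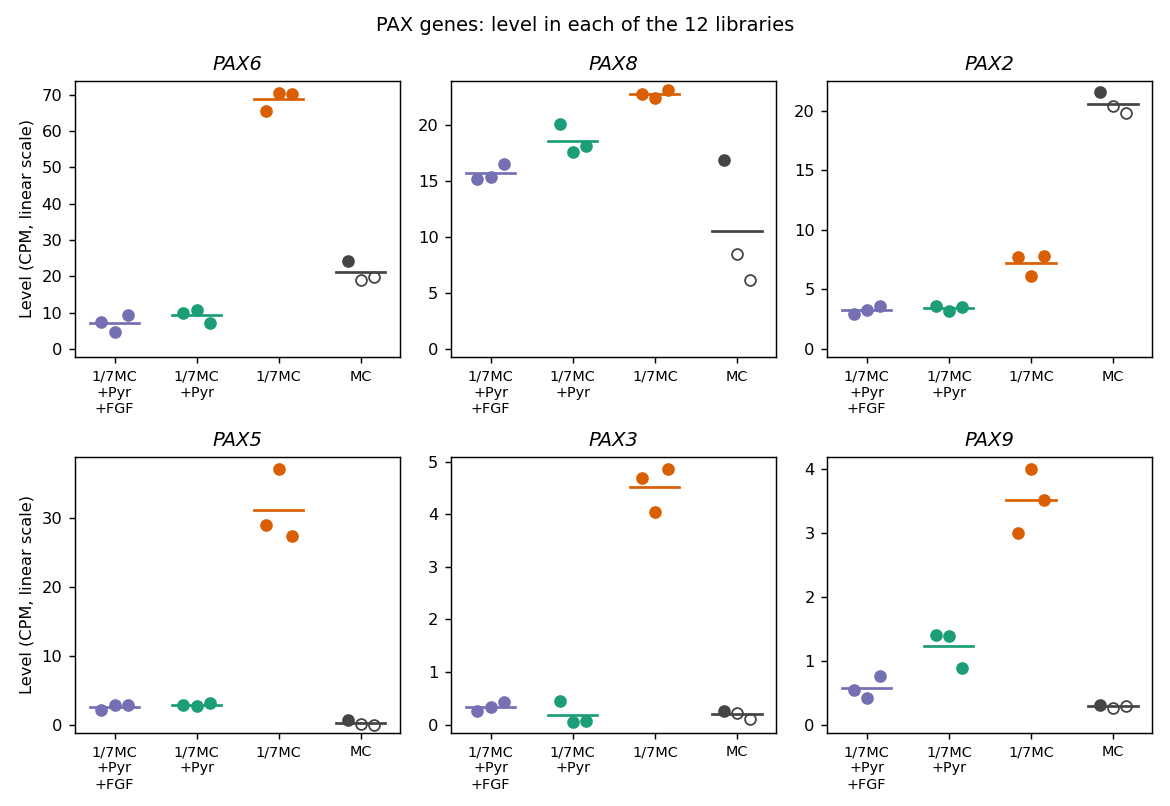
Level of each PAX gene in CPM (linear axis, a scale of its own in each panel) by group, 1 point per library and a line at the group mean, with open circles for MC replicates 2 and 3, assigned to a second set of gene models. PAX6, PAX5, PAX3 and PAX9 peak in 1/7MC (means 68.7, 31.1, 4.52 and 3.51 CPM), PAX2 peaks in MC (20.6 CPM), and the group means of PAX8 lie between 10.5 and 22.7 CPM.

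A member was taken as too low to measure in a group where none of its 3 libraries reached 10 counts. PAX3 in MC, with 9 counts at most, was the only such case. Just above that minimum lay PAX9 in MC with 11 counts at most, PAX3 in 1/7MC+Pyr with 13, PAX3 in 1/7MC+Pyr+FGF with 15 and PAX5 in MC with 22. A minimum of 20 counts would put 4 cases below it, namely PAX3 in all groups but 1/7MC and PAX9 in MC, and a minimum of 5 counts none. PAX1 had 1 count in 1 library of 1/7MC+Pyr and PAX4 had 1 count in 1 library of 1/7MC+Pyr+FGF, with 0 in the other 11 libraries, so both were too low to measure throughout. All 6 members passed the filter on low counts. Most counts of PAX3 were in 1/7MC, with 139 to 168 per library against 15 at most elsewhere. PAX9 was highest in 1/7MC as well, but held 14 to 48 counts in each library with pyruvate.

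Read against the whole table, the family's differences were as follows, and since the members were picked with these contrasts in view nothing is read from the counts. Between 1/7MC+Pyr+FGF and 1/7MC+Pyr, 0 of the 6 passed the threshold, an edgeR adjusted p under 0.05. Of all 13920 genes tested, 2.76% passed it, 0.639% as higher and 2.12% as lower. In that comparison 2 of 6, PAX8 and PAX9, had groups that did not overlap, against 21.5% of all genes. Between 1/7MC+Pyr and 1/7MC, 5 of 6 were lower past the threshold, against 10.1% of all genes in that direction, and PAX8 was the exception. The SE of PAX8 there includes the spread of the MC libraries. In the same comparison none of the 6 overlapped, against 37.5% of genes without overlap. Between 1/7MC and MC, all 6 passed, as did 45.0% of genes, and none overlapped, as for 58.0% of genes. Of these, 5 were higher in 1/7MC, against 23.7% of genes, and PAX2 was lower, against 21.3%. When MC replicate 1 stood for MC by itself, 4 members were higher and 1 lower past the threshold, with PAX8 no longer past it, and 23.9% of 14361 genes passed (14.0% higher, 9.96% lower).

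Against MC, the groups with pyruvate left the members on both sides. For 1/7MC+Pyr+FGF against MC the log2 fold changes were -2.66 for PAX2, -1.56 for PAX6, 0.57 for PAX8, 0.73 for PAX3, 1.00 for PAX9 and 3.30 for PAX5. Against MC replicate 1 alone they were -2.74, -1.78, -0.13, 0.39, 0.88 and 2.05 in the same order of genes, so PAX8 lay on either side of MC depending on which MC libraries were used. For 1/7MC+Pyr against MC they were -2.58 for PAX2, -1.17 for PAX6, 0.82 for PAX8, -0.10 for PAX3, 2.08 for PAX9 and 3.45 for PAX5. Against MC replicate 1 alone they were -2.63, -1.36, 0.15, -0.42, 2.00 and 2.23 in that order of genes, with an SE of 0.15 for PAX8. PAX3, too low to measure in MC, ran from -1.60 to 0.36 when single libraries were left out, the lowest without 1/7MC+Pyr replicate 1. For 1/7MC+Pyr+FGF against 1/7MC the values ran from -0.54 ± 0.26 for PAX8 to -3.74 ± 0.43 for PAX3, with PAX2 at -1.14 ± 0.14, PAX9 at -2.60 ± 0.27, PAX6 at -3.26 ± 0.22 and PAX5 at -3.58 ± 0.38. Between 1/7MC+Pyr+FGF and 1/7MC, 5 of 6 members passed as lower, against 15.7% of all genes (27.6% in either direction and 46.1% without overlap). In 1/7MC+Pyr+FGF against MC, 2 members were higher and 2 lower past the threshold, against 17.1% and 15.4% of genes (32.5% in all, 44.2% without overlap), and PAX8 overlapped. Of the members in 1/7MC+Pyr against MC, 3 were higher and 2 lower, against 15.2% and 13.2% of genes (28.4% in all, 43.1% without overlap), and PAX3 overlapped. With MC replicate 1 by itself, 1 member was higher and 2 lower in 1/7MC+Pyr+FGF, against 5.86% and 6.13% of genes. In 1/7MC+Pyr 2 were higher and 2 lower, against 6.56% and 3.15% (9.71% in all). These comparisons share libraries with those above, and here too nothing is read from how many members passed.

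**Figure D2:**
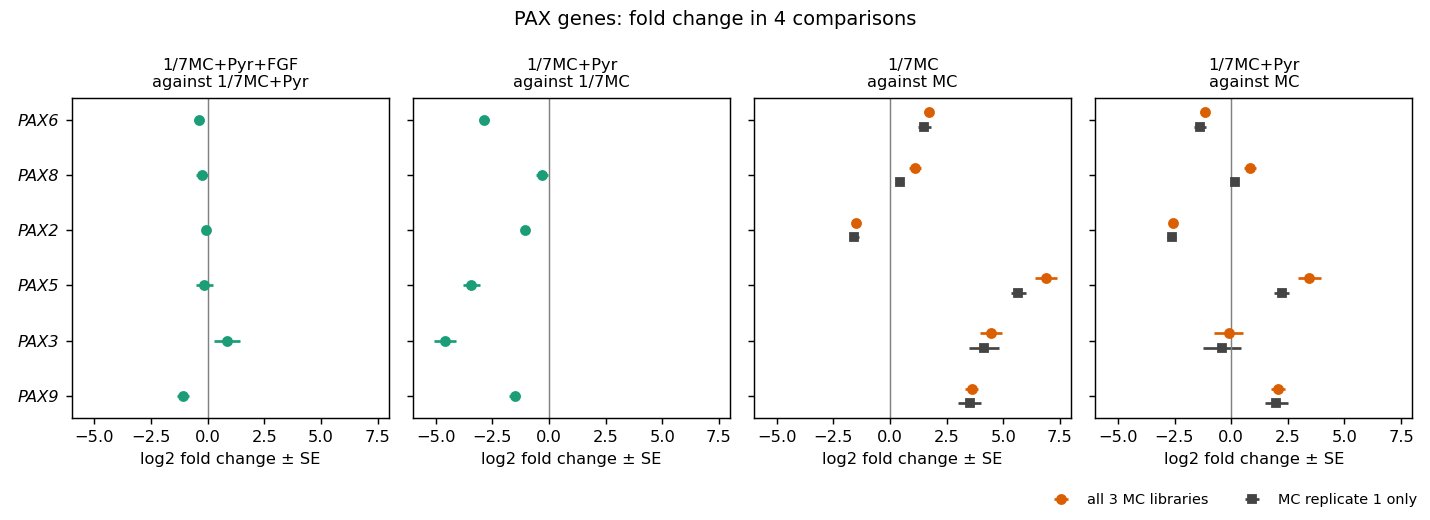
Log2 fold change (horizontal axis, bars of 1 SE) of the 6 PAX genes in 4 comparisons, the first-named group over the second, with circles for the fit over all 12 libraries and squares for MC replicate 1 standing for MC by itself. PAX3, PAX5, PAX6 and PAX9 lie to the right in 1/7MC against MC and to the left in 1/7MC+Pyr against 1/7MC, while PAX2 lies to the left in both.

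To compare members with each other, counts were divided by the gene length in the count table and scaled to the same sum per library (a length-scaled level on the scale of TPM), over the 10 libraries of 1 set of gene models. On this level PAX8 led with pyruvate and PAX6 without it. In 1/7MC+Pyr+FGF, PAX8 averaged 11.4 and PAX6 4.40, or 65.8% and 25.4% of the summed PAX level. In 1/7MC+Pyr, PAX8 averaged 14.5 and PAX6 6.19, or 64.1% and 27.3%. In 1/7MC, PAX6 averaged 45.8 and PAX8 17.8, or 59.5% and 23.1%, followed by PAX5 at 7.62 with 9.91%. In MC replicate 1, PAX6 was at 16.2, PAX8 at 13.2 and PAX2 at 3.28, which made 48.9%, 39.9% and 9.89%.

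The ranks of the lower members changed too. PAX2 was the lowest of the 6 in 1/7MC, at a length-scaled 1.09, below PAX3 at 2.89 and PAX9 at 1.76, and no neighbours in that order overlapped there. That place rests on the length in the count table, 13627 bases for PAX2 against 3229 for PAX3 and 4141 for PAX9. By counts PAX2 was above both in 1/7MC, at 228 to 269 against 139 to 168 for PAX3 and 89 to 151 for PAX9. Whether the table's length matches the transcripts made was not tested. In MC replicate 1, PAX3, PAX9 and PAX5 lay together at 0.150 to 0.162, under PAX2. These levels are 9, 11 and 22 counts in 1 library, at or near the limit of measurement, so their order is not read. With pyruvate alone PAX5, PAX9 and PAX2 had neighbours that overlapped, and so did PAX5 with PAX2 and PAX9 with PAX3 in 1/7MC+Pyr+FGF. The level of PAX6 was above that of 29.1% of tested genes in 1/7MC+Pyr+FGF, 31.5% in 1/7MC+Pyr, 73.5% in 1/7MC and 49.6% in MC replicate 1. PAX8 stayed between 43.7% and 50.4% in these groups. The summed length-scaled level of the 6 was 15.7 to 19.8 in 1/7MC+Pyr+FGF, 21.0 to 25.1 in 1/7MC+Pyr, 71.0 to 82.7 in 1/7MC and 33.2 in MC replicate 1.

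**Figure D3:**
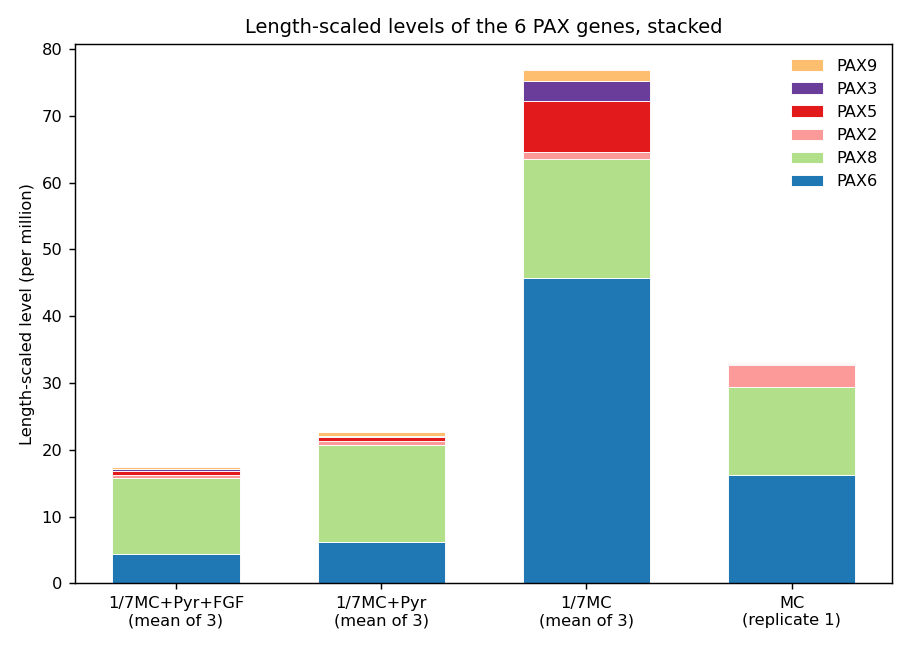
Length-scaled levels of the 6 PAX genes (scale of TPM, linear axis from 0), stacked as group means of 3 libraries for 1/7MC+Pyr+FGF, 1/7MC+Pyr and 1/7MC, and as the single library of MC replicate 1. PAX8 makes most of the bar in the groups with pyruvate, and PAX6 most of the taller bar of 1/7MC (45.8 of the summed level).

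Genes that work with each PAX factor were gathered in 7 lists from textbook knowledge, with 61 of 91 listed genes high enough to test. The median log2 fold change of all genes tested was 0.01 for 1/7MC+Pyr+FGF against 1/7MC+Pyr, -0.01 for 1/7MC+Pyr against 1/7MC and 0.00 for 1/7MC against MC. The counts of each list are to be read against the shares of all genes that passed, 8.08% as higher and 10.1% as lower in 1/7MC+Pyr against 1/7MC, and 23.7% as higher and 21.3% as lower in 1/7MC against MC. All adjusted p-values below are from edgeR's quasi-likelihood test, adjusted over all genes tested.

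Of 12 tested regulators of eye and forebrain that work with PAX6, 7 were lower in 1/7MC+Pyr than in 1/7MC and none higher (median -1.34), and 7 were higher and 1 lower in 1/7MC than in MC (median 1.61). Counts were again 7 and 1 with MC replicate 1 alone, then of 14 tested. Of all genes, 10.1% were lower with pyruvate, and 23.7% were higher and 21.3% lower in 1/7MC than in MC. MAB21L1, which is needed for the lens and iris in mouse, averaged 1.61 ± 0.260 CPM in 1/7MC+Pyr, 73.4 ± 4.19 in 1/7MC and 1.07 ± 0.259 in MC. It fell by 5.50 ± 0.27 on the log2 scale with pyruvate (adjusted p = 4.21e-07) and rose by 6.10 ± 0.28 in 1/7MC against MC (adjusted p = 1.95e-08). The 3 libraries of 1/7MC lay at 69.5 to 77.9 CPM and the highest of the others, in 1/7MC+Pyr+FGF, at 2.89 CPM. MITF, the regulator of pigment cells and of the retinal pigment epithelium, was at 4.78 ± 1.02 CPM in 1/7MC+Pyr, 37.3 ± 2.01 in 1/7MC and 4.37 ± 2.67 in MC, with log2 fold changes of -2.96 ± 0.37 (adjusted p = 0.000191) and 3.08 ± 0.37 (adjusted p = 3.22e-05). Its MC libraries were at 7.45, 2.81 and 2.86 CPM, and against replicate 1 by itself the log2 fold change was 2.33 ± 0.35.

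Other genes of this list passed the threshold in the same comparisons. LHX2, a regulator of the optic vesicle, rose by 1.19 ± 0.15 in 1/7MC against MC and fell by 1.64 ± 0.15 in 1/7MC+Pyr against 1/7MC. MEIS1 and MEIS2, which act upstream of Pax6 in the mouse lens, rose by 2.32 ± 0.12 and 2.03 ± 0.10 in 1/7MC against MC and fell by 1.39 ± 0.12 and 1.18 ± 0.09 with pyruvate. RAX, a regulator of the early eye field, had another order. It averaged 0.835 ± 0.356 CPM in 1/7MC+Pyr+FGF, 0.596 ± 0.103 in 1/7MC+Pyr, 7.73 ± 2.15 in 1/7MC and 12.1 ± 0.463 in MC. It fell by 3.69 ± 0.29 with pyruvate (adjusted p = 8.35e-06), and its log2 fold change of -0.64 ± 0.23 in 1/7MC against MC (adjusted p = 0.0403) missed the threshold when only MC replicate 1 was used (adjusted p = 0.136). That call was also lost without MC replicate 2 or 3, without 1/7MC replicate 1 or 2 and on the rescaled signal (adjusted p up to 0.146). OTX2, which marks the forebrain as well as pluripotent cells, was at 166 ± 10.97 CPM in 1/7MC+Pyr and 145 ± 8.001 in 1/7MC, a log2 difference of 0.20 ± 0.10 that did not pass (adjusted p = 0.192).

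The genes SIX2, SIX3 and SIX6, their relatives, and the EYA and DACH genes form a network with PAX factors in eye, ear and kidney. Of 11 tested, 3 were lower and none higher in 1/7MC+Pyr than in 1/7MC (median -0.36), and 3 were higher and 4 lower in 1/7MC than in MC (median 0.04, with 3 and 1 against MC replicate 1). SIX6, of the eye and pituitary, averaged 0.786 ± 0.368 CPM in 1/7MC+Pyr, 24.6 ± 4.86 in 1/7MC and 2.09 ± 0.174 in MC. It fell by 4.94 ± 0.28 with pyruvate (adjusted p = 8.06e-07) and rose by 3.56 ± 0.25 in 1/7MC against MC (adjusted p = 4.46e-07). SIX2, which keeps kidney progenitors, averaged 14.3 ± 2.34 CPM in 1/7MC+Pyr, 57.0 ± 0.551 in 1/7MC and 2.20 ± 0.525 in MC, with log2 fold changes of -2.0 ± 0.22 and 4.70 ± 0.26. EYA2, a coactivator in this network, fell by 2.18 ± 0.31 with pyruvate (adjusted p = 0.000507), and was at 7.18 ± 1.32 CPM in 1/7MC and 6.94 ± 0.888 in MC. SIX3, the forebrain relative of SIX6, had -0.47 ± 0.13 in 1/7MC against MC and did not pass with MC replicate 1 by itself (adjusted p = 0.11).

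**Figure D4:**
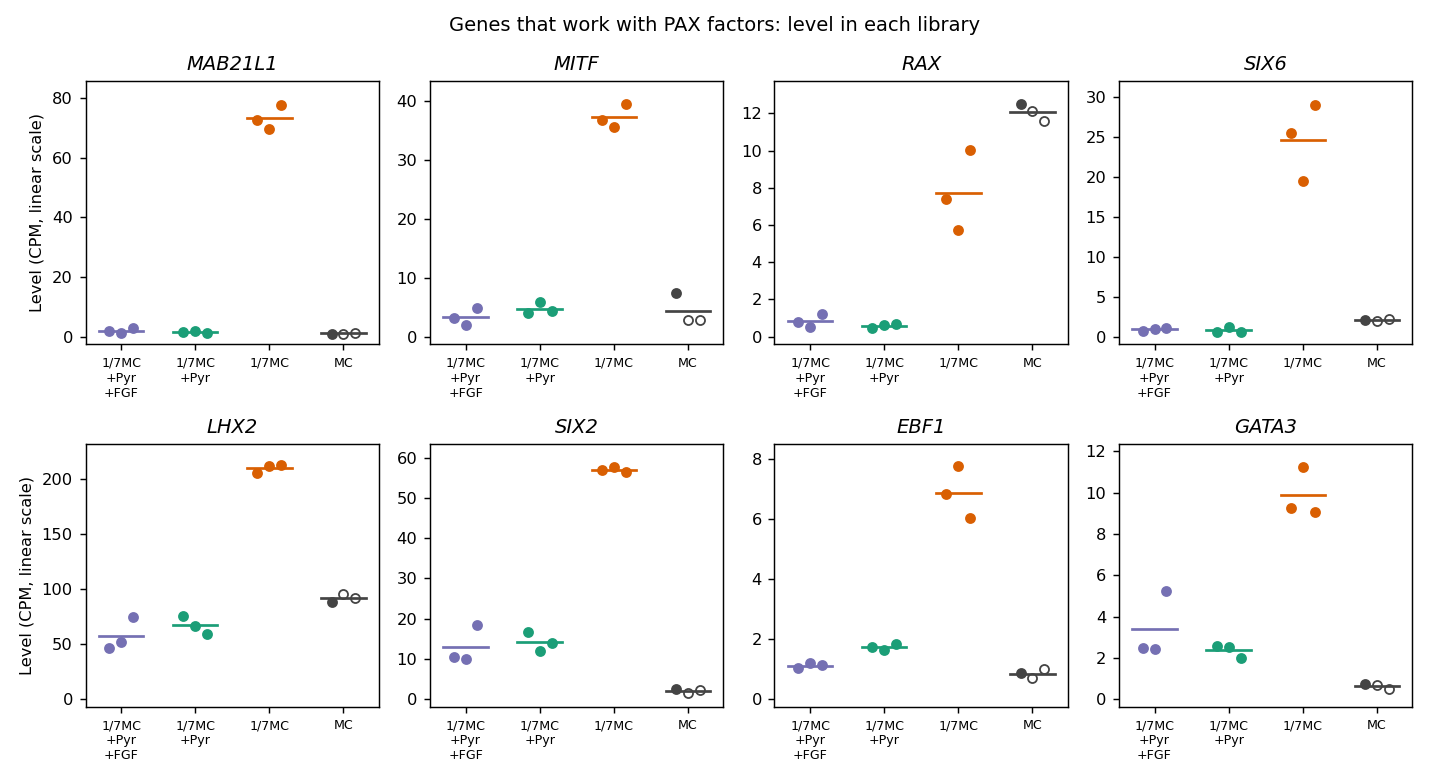
Level in CPM (linear axis, a scale of its own in each panel) of 8 genes that work with PAX factors, 1 point per library and a line at the group mean, open circles for MC replicates 2 and 3. MAB21L1, MITF, SIX6, LHX2, SIX2 and EBF1 peak in 1/7MC, as does GATA3 (mean 9.86 CPM), and RAX is highest in MC (mean 12.1 CPM).

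Of 14 tested regulators that act with PAX2 and PAX8 in kidney and midbrain-hindbrain, 4 were higher and 5 lower in 1/7MC+Pyr than in 1/7MC (median -0.71), and 4 were higher and 6 lower in 1/7MC than in MC (median 0.18, with 4 and 4 against MC replicate 1). The share higher in 1/7MC than in MC was near that of all genes, 23.7%. SIX2 counts here too. WNT4, a signal of kidney tubule formation, fell by 2.79 ± 0.26 with pyruvate (adjusted p = 2.41e-05) and rose by 2.77 ± 0.26 in 1/7MC against MC (adjusted p = 4.46e-06). GATA3, a target of Pax2 and Pax8 in the mouse nephric duct, averaged 2.37 ± 0.336 CPM in 1/7MC+Pyr, 9.86 ± 1.20 in 1/7MC and 0.638 ± 0.135 in MC. Its log2 fold changes were -2.05 ± 0.28 (adjusted p = 0.000329) and 3.93 ± 0.32 (adjusted p = 1.28e-06). LHX1, which acts in the same duct, ran the other way, at 1.61 ± 0.473 CPM in 1/7MC+Pyr, 0.238 ± 0.152 in 1/7MC and 1.499 ± 0.138 in MC. It rose by 2.74 ± 0.39 with pyruvate (adjusted p = 0.000526), and its value in 1/7MC against MC was -2.65 ± 0.39 (adjusted p = 0.000176). GFRA1 and RET of this list went the same way as LHX1. They rose by 0.71 ± 0.10 and 1.17 ± 0.27 with pyruvate (adjusted p = 0.000477 and 0.00973). Their values in 1/7MC against MC were -1.79 ± 0.10 and -2.07 ± 0.26 (adjusted p = 7.76e-08 and 5.01e-05). FGF8, of the midbrain-hindbrain border, fell by 2.61 ± 0.60 with pyruvate (adjusted p = 0.0104). In 1/7MC against MC, FGF8 was lower too, at -1.51 ± 0.45 (adjusted p = 0.0158). That call was lost without 1/7MC replicate 3 and also with MC replicate 1 standing for MC by itself. EN1, of the same border, was too low to test.

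Thyroid genes were scarce. Of 8 genes that act with PAX8 in the thyroid, 3 could be tested, of which 2 were higher in 1/7MC than in MC and 1 lower in 1/7MC+Pyr than in 1/7MC. FOXE1, a transcription factor of the thyroid, rose by 1.92 ± 0.26 in 1/7MC against MC (adjusted p = 9.42e-05), and by 1.49 ± 0.33 with MC replicate 1 alone. It was at 22.5 ± 2.66 CPM in 1/7MC+Pyr and 20.9 ± 1.69 CPM in 1/7MC (log2 0.11 ± 0.25, adjusted p = 0.821). Thyroglobulin, TG, averaged 0.0588 ± 0.0741 CPM in 1/7MC+Pyr, 0.0321 ± 0.0339 in 1/7MC and 0 in MC, with at most 5 counts in any library.

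Genes that act with PAX5 in B cells were mixed. Of 6 tested, 2 were lower in 1/7MC+Pyr than in 1/7MC (median -0.43), and 2 were higher and 1 lower in 1/7MC than in MC (median 0.04). EBF1, a transcription factor of early B cells that is also made in mesenchymal cells, averaged 1.74 ± 0.104 CPM in 1/7MC+Pyr, 6.87 ± 0.855 in 1/7MC and 0.858 ± 0.150 in MC. It fell by 1.98 ± 0.18 with pyruvate (adjusted p = 1.66e-05) and rose by 3.00 ± 0.19 in 1/7MC against MC (adjusted p = 1.82e-07). CD79A, part of the B cell receptor complex, was at 0.577 ± 0.232 CPM in 1/7MC and 1.35 ± 0.238 in MC, a log2 fold change of -1.25 ± 0.35 (adjusted p = 0.0109). RAG1, which joins receptor gene segments, had 0 counts in all 12 libraries, and CD22 and IKZF1 had 0 in the 6 libraries of 1/7MC and MC.

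The neural border and crest list of PAX3 was split. Of 12 tested, 4 were higher and 4 lower in 1/7MC+Pyr than in 1/7MC (median 0.19), and 6 were higher and 4 lower in 1/7MC than in MC (median 1.18, with 5 and 4 against MC replicate 1). TFAP2B, a crest regulator, averaged 0.0565 ± 0.0434 CPM in 1/7MC+Pyr and 0.749 ± 0.212 in 1/7MC and fell by 3.68 ± 0.72 (adjusted p = 0.00401), while in MC it had counts in 1 library only. MSX2, induced at the neural border by BMP signals, fell by 1.41 ± 0.15 with pyruvate (adjusted p = 7.41e-05). SNAI2, which drives crest cells to leave the epithelium and is also made in fibroblasts, rose by 3.25 ± 0.16 in 1/7MC against MC (adjusted p = 2.88e-08). SOX10, a defining gene of migrating crest, fell in 1/7MC, at 0.312 ± 0.106 CPM against 2.02 ± 0.608 in MC, a log2 fold change of -2.68 ± 0.42 (adjusted p = 0.00026). MEOX1, of the somites, rose by 1.39 ± 0.31 in 1/7MC+Pyr against 1/7MC (adjusted p = 0.0094).

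Of 6 tested genes of the PAX1 and PAX9 list, 1 was higher and 2 lower in 1/7MC+Pyr than in 1/7MC (median -0.80), and 2 were higher and 2 lower in 1/7MC than in MC (median 0.35, with 2 and 1 of 9 tested against MC replicate 1). BMP4, a signal that works with Pax9 in the mouse tooth bud, averaged 119 ± 15.2 CPM in 1/7MC+Pyr+FGF, 79.6 ± 8.19 in 1/7MC+Pyr, 129 ± 7.85 in 1/7MC and 39.7 ± 2.50 in MC. It fell by 0.70 ± 0.11 with pyruvate (adjusted p = 0.000988) and rose by 1.70 ± 0.11 in 1/7MC against MC (adjusted p = 2.69e-07). FOXC2, of sclerotome and other mesenchyme, rose by 3.60 ± 0.25 in 1/7MC against MC (adjusted p = 3.96e-07). Its fall by 0.91 ± 0.21 with pyruvate (adjusted p = 0.0106) missed the threshold without 1/7MC+Pyr replicate 3 (adjusted p = 0.0544).

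When FGF was added to pyruvate, 7 of the 61 linked genes passed, against 2.76% of all genes. SNAI2 fell by 1.33 ± 0.14 (adjusted p = 0.000593), LHX1 by 1.97 ± 0.36 (adjusted p = 0.014) and MEOX1 by 1.40 ± 0.31 (adjusted p = 0.0346). MSX2 rose by 0.96 ± 0.15 (adjusted p = 0.00772) and MEIS2 by 0.62 ± 0.09 (adjusted p = 0.00558). BMP4 rose by 0.59 ± 0.11 (adjusted p = 0.0159) and missed the threshold without 1/7MC+Pyr replicate 3 and under the replicate block (highest adjusted p of all alternatives 0.0817). The call of LHX1 was lost without replicate 1 or 3 of either group (adjusted p up to 0.0724). That of MEOX1 was lost without any 1 library of these groups and under the block (adjusted p up to 0.139). MEIS1 fell by 0.50 ± 0.12 (adjusted p = 0.0463), the nearest of the 7 to the threshold, and its alternatives are not given here. The number of linked genes that passed was 4 under the block and 3 to 7 with 1 library left out.

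For each member, the 5 genes of most similar level across libraries were taken by Pearson correlation of log2 CPM over the 10 libraries of 1 set of gene models. These values are descriptions over libraries that share their groups and depth. PAX6 was most like NT5E (r = 0.992), DCT, CAPN6, MITF and ADAMTS18 (r = 0.982). DCT, an enzyme of melanin synthesis, was at 1.66 CPM in 1/7MC+Pyr+FGF, 1.79 in 1/7MC+Pyr, 32.8 in 1/7MC and 4.59 in MC replicate 1. PAX2 was most like BNIP3 (r = 0.986), FOS, DLK1, ACTA1 and SRGAP3, and FOS, an immediate early gene, was at 10.9, 13.5, 25.2 and 155 CPM in the same order of groups. PAX5 was most like SORBS2 (r = 0.997), CDH8, SLITRK1, GTF2IRD2 and MPPED2. CDH8, a cadherin of neurons, was at 1.67, 2.03, 16.02 and 0.392 CPM.

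PAX3 was most like GPR37 (r = 0.983), LRRC41, TRAF4, NPNT and DLX1, a forebrain homeobox gene that was at 0.0628 CPM in 1/7MC+Pyr+FGF, 0.0229 in 1/7MC+Pyr, 1.69 in 1/7MC and 0.0840 in MC replicate 1. PAX8 was most like EBF4 (r = 0.996), KLC4, IGFBP5, HES4 and PLIN1, and PAX9 like RHOBTB1 (r = 0.991), SELENOP, CSDC2, ENOX1 and ATOSA. By another measure most of these names changed. With Spearman correlation 0 of the 5 stayed among the first 5 for PAX2, PAX5 and PAX6, 1 for PAX3 and PAX9 and 3 for PAX8. Over all 12 libraries 5 of 5 stayed for PAX2 and 0 of 5 for PAX5 and PAX8.

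Other cell types were followed by their markers beside these results. In 1/7MC against MC, 14 of 14 fibroblast and feeder markers rose (median 2.57), where 23.7% of all genes rose. In 1/7MC+Pyr against 1/7MC, 2 of those markers rose and 6 fell (median -0.13), where 8.08% of all genes rose and 10.1% fell, and their sum was 12240 to 21740 CPM in 1/7MC+Pyr and 9672 to 15610 CPM in 1/7MC. COL1A1, a chain of collagen I and the most abundant of them, was at 8434 ± 2932 CPM in 1/7MC+Pyr, 5183 ± 1395 in 1/7MC and 1200 ± 19.4 in MC. The part of fibroblast or feeder RNA in the PAX levels was not tested.

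Neural and eye markers went both ways. Of 10 tested, none was higher and 4 were lower in 1/7MC+Pyr than in 1/7MC (median 0.01), against 8.08% and 10.1% of all genes. In 1/7MC against MC, 5 were higher and 2 lower (median 0.50), against 23.7% and 21.3% of all genes. The share lower than in MC was thus near that of all genes. The 12 neuron and retina markers summed to 323 to 422 CPM in 1/7MC+Pyr+FGF, 379 to 455 in 1/7MC+Pyr, 644 to 692 in 1/7MC and 311 to 342 in MC. PMEL, a pigment cell protein of that list, was at 6.99 ± 0.589 CPM in 1/7MC+Pyr+FGF, 10.6 ± 0.682 in 1/7MC+Pyr, 138 ± 3.30 in 1/7MC and 12.5 ± 1.22 in MC. The neuronal tubulin TUBB3 was at 111 ± 8.94 CPM in 1/7MC+Pyr, 176 ± 17.1 in 1/7MC and 84.9 ± 2.22 in MC, and fell by 0.67 ± 0.12 with pyruvate (adjusted p = 0.00251). STMN2, of growing neurons, was at 232 ± 27.7 CPM in 1/7MC+Pyr and 220 ± 9.42 in 1/7MC (log2 0.08 ± 0.12, adjusted p = 0.73). Of the defining markers, RPE65 of the pigment epithelium had 0 counts in 1/7MC+Pyr and MC, but was not at 0 in 1/7MC or 1/7MC+Pyr+FGF. TYR, the first enzyme of melanin synthesis, stayed under 0.1 CPM in all libraries.

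Blood cell markers were low throughout, with sums of 17.5 to 23.4 CPM in 1/7MC+Pyr+FGF, 26.3 to 30.5 in 1/7MC+Pyr, 19.8 to 26.8 in 1/7MC and 7.01 to 8.99 in MC. TAL1 and RUNX1 held most of these sums. PTPRC, the common antigen of white blood cells, was at 0.240 ± 0.187 CPM in 1/7MC and 0.359 ± 0.0299 in MC. Pluripotency markers summed to 3337 to 3764 CPM in 1/7MC+Pyr+FGF, 4167 to 4408 in 1/7MC+Pyr, 2490 to 2782 in 1/7MC and 4397 to 4475 in MC, so the group with the highest summed PAX level, 1/7MC, had the lowest summed pluripotency level. Of 10 tested in 1/7MC+Pyr against 1/7MC, 7 rose and none fell (median 0.70), against 8.08% of all genes higher and 10.1% lower.

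**Figure D5:**
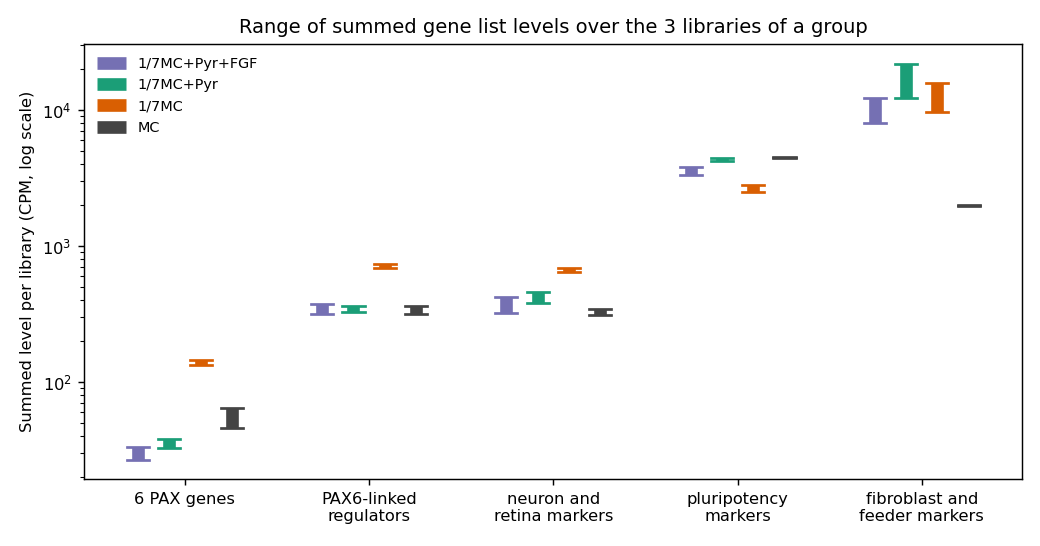
Range over the 3 libraries of a group (bar from lowest to highest) of the summed level of 5 gene lists, in CPM on a log axis. The PAX genes, the regulators linked to PAX6 and the neuron and retina markers are highest in 1/7MC, the pluripotency markers are lowest there, and the fibroblast and feeder markers are lowest in MC.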

How the data were processed

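Poly-A RNA of 12 libraries was made with random hexamer primers and no stated strand mark, per the labels' protocols, so overlapping and antisense genes are uncertain. The submitters' processing notes name fastp 0.19.7, HISAT2 2.1.0, Subread 2.0, featureCounts and the build bosTau9; settings and annotation are not given in the sources used here. The deposited counts are whole reads per gene, not normalized. A second deposited table, labelled TPM by the authors, holds a signal equal to the count over gene length times a constant, 4.943 in every library, with no correction for depth; it was rescaled to equal sums for levels per length and as an alternative. Symbols of 19195 entries came from RefSeq's ARS-UCD2.0 gene table, whose coordinates were not used.

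Gene models were told apart by entries that share an identifier. Among 61 Entrez identifiers, 53 had unequal counts in MC replicates 2 and 3, against 0 in each remaining library. Among 128 Ensembl identifiers, 0 had unequal counts in MC replicates 2 and 3, against 80 to 86 in each remaining library. The 400 entries sharing an identifier, 1.07 to 1.40% of counts, were left out, which left 18885. No replicate pair agreed within sampling noise (lowest mean chi-square per gene 3.365).

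Counts were scaled by TMM, filtered with filterByExpr (13920 genes kept) and fitted in edgeR 4.0.16 under R 4.3.3 with 1 coefficient per group over all 12 libraries. Each gene thus has 1 estimate of spread, which MC replicates 2 and 3 enter in every comparison. The quasi-likelihood F test was used with Benjamini-Hochberg adjustment over all genes and a threshold of 0.05. The SE is the log2 fold change over the root of F. Log2 CPM used a prior count of 2. The fit was tested on simulated counts. With MC replicate 1 standing for MC, that library is assumed to vary like the other groups. Alternatives used DESeq2 1.42.0, limma 3.58.1 (pseudocount 0.5), other filters and scalings, a replicate block and single libraries left out. Summaries used Python 3.11.15.

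The members and the gene lists were chosen with earlier results of these data known. Named were all PAX genes, from each linked list up to 4 genes with the largest change past the threshold in 1/7MC against MC or 1/7MC+Pyr against 1/7MC plus partners described beside a member, from each cell type list up to 4 of the highest mean CPM, and the 5 genes most like each member. Linked genes that passed when FGF was added, and markers given for being at or near 0, were named after their values were seen. LHX2 was named outside these rules, and some genes that met them, such as MAB21L2 and VSX1, were not described. SOX1, SOX3, ZIC1 and VPREB1 of the lists were not analysed here, and some items are not reported here.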

Additional observations from a re-analysis of the deposited data

How the results depend on the processing

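Of the members' log2 fold changes, 450 values under the alternatives stayed within the spread between replicates and 34 moved beyond it. That spread is the SD of log2 CPM within the groups compared, and it was wide for PAX5 in MC (0 to 0.616 CPM). On the rescaled signal 22 of 36 values moved. With MC replicate 1 by itself 4 moved, and with 1 library left out 8 did. No called value changed sign. Calls over all genes for 1/7MC+Pyr+FGF against 1/7MC+Pyr numbered 384, against 902 with DESeq2, 181 under the replicate block and 127 to 439 with 1 library left out; of linked genes 7 passed, 4 under the block and 3 to 7 with 1 library left out. Calls numbered 2525 for 1/7MC+Pyr against 1/7MC (1423 to 2252 with 1 library left out). With MC replicate 1 by itself they numbered 3438 in place of 6268 for 1/7MC against MC, 1394 in place of 3949 for 1/7MC+Pyr against MC and 1723 in place of 4527 for 1/7MC+Pyr+FGF against MC; with 1 library left out the last 2 ran from 2571 to 5151 and from 3015 to 5337. Pairs of member and group too low to measure numbered 1 at 10 counts, 0 at 5 and 4 at 20. On the rescaled signal the split of higher to lower calls became 3882 to 2194 in place of 3303 to 2965 for 1/7MC against MC, 899 to 2582 in place of 1656 to 2186 for 1/7MC+Pyr+FGF against 1/7MC, and 2510 to 1263 in place of 2115 to 1834 for 1/7MC+Pyr against MC. The cause was not tested. Same-numbered libraries of different groups deviated with correlations from -0.316 to 0.333 over 18 pairs, so the numbers were not taken as pairs.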
